A study of Mus musculus with 29 samples.

Results

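The cornified envelope genes described here are 10 genes chosen by symbol: the small proline-rich genes Sprr1a, Sprr1b, Sprr2b, Sprr2d, Sprr2g and Sprr3, involucrin (Ivl), suprabasin (Sbsn) and the transglutaminases Tgm1 and Tgm3. All 10 were found among the 35199 gene rows of every table. The study asked what a constitutively active Pparg does to basal cells of the mouse bladder urothelium and to the tumors that form from them after the carcinogen BBN (N-butyl-N-(4-hydroxybutyl)-nitrosamine).

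In mutants, labelled K5VP16;Pparg+/-, tamoxifen switched on a VP16;Pparg fusion in cells that express a keratin 5 driven CreERT2, so the transgene was confined to basal cells and their descendants. Controls were labelled wild type, and the study's methods give the sorted ones as K5;mTmG, that is with the Cre and the mTmG reporter but without VP16;Pparg. Mice were 8 to 12 weeks old at induction. Cells that carried the Gfp lineage label were sorted 4 days after induction from mice without BBN, giving 4 control and 5 mutant libraries. Tumor libraries came from laser-captured sections of mice labelled with 5 months of BBN, given at 0.05% in the water, and titled 4 months. There were 3 basal tumors from mice labelled wild type and, from mutants, 3 luminal tumors. The study names its tumor controls as VP16;Pparg fl/fl in some places and as K5;mTmG in others. Mutants also gave 3 libraries each of the luminal domain, titled top, and the basal-like domain, titled bottom, of luminal tumors. In the study's text mutants and controls alike had 1 month of BBN before induction. In these tumor mice tamoxifen was put into the bladder, whereas in the 4-day mice it was injected into the abdomen. Libraries are lettered within each group, and the letters pair nothing. Nothing in the labels ties a library to a separate animal, so p-values measure the spread between libraries, which may be partly technical.

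The cornified envelope is the protein shell that stratified epithelia such as epidermis build beneath the plasma membrane of dying surface cells. Involucrin and the small proline-rich proteins are its early, cross-linked building blocks, and transglutaminases such as Tgm1 and Tgm3 make the cross-links. The bladder is lined by urothelium, whose surface cells carry uroplakin plaques instead of a cornified layer, and squamous change in bladder tumors is recognised by genes of this kind.

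Of the 10 genes, 7 lie on chromosome 3 in the epidermal differentiation complex, where 17 listed genes, Sprr genes and Ivl together, span 357.9 kb from position 92215799 to 92573735 (GRCm38, GENCODE M21). Sprr1a lies at chr3:92483952-92485895 on the minus strand, Ivl at chr3:92570902-92573735 on the minus strand, and Sprr2g at chr3:92373915-92375229 on the plus strand. The annotation types Sprr2g as a polymorphic pseudogene. Sbsn lies on chromosome 7 (30751471 to 30756134), Tgm1 on chromosome 14 (55700009 to 55713926) and Tgm3 on chromosome 2 (130012349 to 130050399).

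The 250 bases before the RefSeq start (GRCm38.p6) are shown for members that were higher in luminal tumors, Sprr1a and Ivl, and for 2 neighbours that passed no test there, Sprr1b and Sprr3. Capitals mark TGANTCA, where N is any base, a pattern that reads the same on both strands. It is wider than the consensus site of AP-1 (Fos and Jun family dimers), which has C or G in the middle.
Sprr1a, chr3:92485882-92486131, minus strand: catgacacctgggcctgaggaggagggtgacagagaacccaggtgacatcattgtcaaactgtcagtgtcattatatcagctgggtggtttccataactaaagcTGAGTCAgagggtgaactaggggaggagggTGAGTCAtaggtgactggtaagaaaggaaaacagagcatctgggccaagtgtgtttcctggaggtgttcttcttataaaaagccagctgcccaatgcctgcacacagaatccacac
Ivl, chr3:92573736-92573985, minus strand: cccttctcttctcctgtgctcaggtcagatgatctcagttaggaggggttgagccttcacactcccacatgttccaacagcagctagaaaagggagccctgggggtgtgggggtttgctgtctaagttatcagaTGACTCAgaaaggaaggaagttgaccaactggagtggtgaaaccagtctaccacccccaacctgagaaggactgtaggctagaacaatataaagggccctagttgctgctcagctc
Sprr1b, chr3:92438780-92439029, minus strand: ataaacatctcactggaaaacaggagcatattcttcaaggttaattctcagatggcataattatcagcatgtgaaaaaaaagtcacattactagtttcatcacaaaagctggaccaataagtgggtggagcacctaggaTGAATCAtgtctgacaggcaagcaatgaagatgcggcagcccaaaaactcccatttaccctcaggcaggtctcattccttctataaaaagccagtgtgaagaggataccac
Sprr3, chr3:92458721-92458970, minus strand: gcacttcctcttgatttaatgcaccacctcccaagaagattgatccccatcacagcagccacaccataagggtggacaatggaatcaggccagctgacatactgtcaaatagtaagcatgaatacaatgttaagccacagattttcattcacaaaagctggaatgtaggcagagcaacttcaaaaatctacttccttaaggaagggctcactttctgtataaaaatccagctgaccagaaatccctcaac

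Sprr1a held 2 such matches, Ivl 1 and Sprr1b 1, while Sprr3 held none. RefSeq promoters were at hand for 9 of the 10 members (none for Sprr2g), and 6 of these 9 held a match, against 6.75% of all 32851 promoters of this length. Members with a match included Sprr1a and Ivl but also Sprr1b, Sprr2b, Sprr2d and Sbsn. In Sprr1b and Sbsn the match was TGAATCA, which fits the pattern but not the AP-1 consensus. The share over all promoters counts the wider pattern too. The letters AGGTCA written in direct repeat with any 1 base between, the element bound by Pparg with its partner Rxr, were found on neither strand in any of the 9 members' windows and in 0.0335% of all promoters. A match or its absence describes only these letters in this window.

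How surely reads can be given to 1 gene differed among the members. Of the 31-base words in the Sprr2b transcript, 31.9% also occurred in another gene, mostly Sprr2a1, and for Sprr2d the share was 10.3%. For Sprr2g it was 3.07%, and for Sprr1a, Sprr1b and Sprr3 it was 0%, so the values of Sprr2b and, to a lesser degree, Sprr2d are uncertain. Of the Sbsn words 7.95% were shared with the overlapping gene Tmem147os, and of the Tgm1 words 4.8% were shared with Gm49067. Values below are the authors' normalized counts, and differences are on the scale of log2(normalized count + 1). A gene was called when its adjusted p was under 0.05 (limma, Benjamini-Hochberg over all genes tested).

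Normalized counts summed over genes were 36520193 in the lowest and 53904714 in the highest library. The basal keratin Krt5 was at 62918 to 109572 normalized counts in the 4-day libraries, and 14 urothelial epithelium markers summed to at least 331172 in every tumor library compared with basal tumors. Y-linked genes averaged 11.05 to 11.11 (log2) in controls b, c and d but 5.16 to 5.91 in control a and the mutants, so most controls differed from the mutants in this respect too.

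The first comparison asks what changed in basal cells 4 days after VP16;Pparg was switched on. Sprr2g and Tgm1 were called higher in mutants, and no member was called lower. The 2 calls were made among the 6 members that passed the filter on low values, and over all 16413 genes tested 2.85% were called. Sprr2g, under 10 normalized counts in all 4 controls, passed the filter through the mutants alone, so that count includes a gene admitted by its rise. With no filter Sprr2g and Tgm1 were both still called (limma, adjusted p 0.0433 and 0.0308). The same 2 members were higher without overlap of the groups, against 4.67% of all genes higher in this way.

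Sprr2g was low in controls, at 9.42, 9.13, 6.26 and 9.42 normalized counts in controls a to d. Mutants a to e had 5632, 968, 262, 63.1 and 90.9. Every mutant thus lay above every control, but the mutants differed among themselves by far more than the controls did. The log2 difference was 5.35 ± 1.14 (SE, adjusted p = 0.0387). Mean levels were 8.56 ± 1.54 (SD, n = 4) and 1403 ± 2392 (SD, n = 5). The rise ranked 8 among all genes tested, a set that Sprr2g entered through the mutants alone.

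Tgm1, the membrane-anchored transglutaminase of keratinocytes, stood at 101, 90.2, 146 and 154 in controls a to d. In mutants a to e it stood at 661, 331, 436, 453 and 205. The mutant range began above the control range, and the spread among mutants was narrower than for Sprr2g. Means were 123 ± 31.6 (SD, n = 4) and 417 ± 168 (SD, n = 5), with a log2 difference of 1.69 ± 0.33 (SE, adjusted p = 0.0284).

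Control a, which shared the low Y-linked level of the mutants, had Sprr2g and Tgm1 values inside the range of the other controls. In a fit of the low Y-linked libraries alone (control a against 5 mutants), chosen after the data were seen, the log2 differences were 5.21 for Sprr2g and 1.93 for Tgm1, while that of Ivl was 0.10 and that of Sprr1a 0.75. With a lone control few genes could be called in that fit (2 in all), so its p-values are not read here. The calls also depended on single libraries: both were lost without control a, b, c or d or mutant c, Sprr2g also without mutant b and Tgm1 also without mutant d. Over the omission of each of the 9 libraries in turn the log2 difference ran from 4.38 to 5.99 for Sprr2g (adjusted p 0.0252 to 0.115) and from 1.50 to 1.92 for Tgm1 (adjusted p 0.0157 to 0.089). Both calls were lost in the authors' table of 6 of these libraries (adjusted p 0.0502 and 0.167), and that of Sprr2g without a trend in the variance (0.0667).

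**Figure D1:**
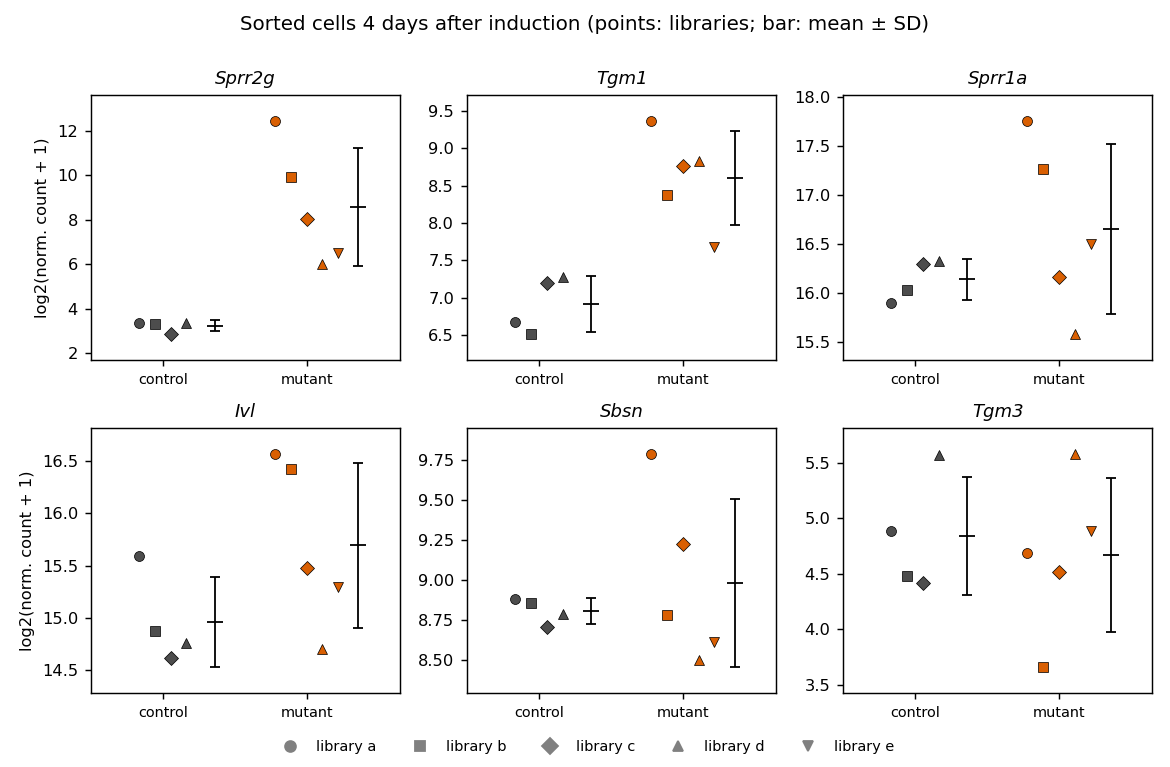
Normalized counts, as log2(count + 1), of the 6 members tested at 4 days in 4 control and 5 mutant libraries. Points are libraries, with a marker shape for each letter, and bars are mean ± SD. Sprr2g and Tgm1 separate the groups, whereas Sprr1a, Ivl, Sbsn and Tgm3 overlap.

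The abundant envelope precursors Sprr1a and Ivl were already present in control basal cells and were not called. Sprr1a had 61175 to 81849 normalized counts in controls and 48937 to 221280 in mutants (log2 difference 0.51, 95% interval -0.36 to 1.39, adjusted p = 0.495). Ivl had 25047 to 49415 and 26702 to 97286 (0.73, interval -0.11 to 1.58, adjusted p = 0.308). In both genes mutants a and b were highest and mutant d lowest of the mutants, below every control for Sprr1a and inside the control range for Ivl.

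Mutants a and b also stood apart for Krt14, a keratin of basal cells, with 11162 and 3883 normalized counts against 616 to 1658 in the other mutants and 388 to 747 in controls. Whether the Krt14 level had a part in the spread of Sprr1a, Sprr2g and Ivl was not tested. The libraries were sorted on the Gfp label of keratin 5 driven recombination, a gate meant to keep cells of basal origin, yet fibroblast markers moved with the groups: all 8 were tested, Fn1 and Lum were called higher in mutants, and the summed level was 13132 to 85397 in controls and 35726 to 252924 in mutants. All 6 smooth muscle markers were higher on average in mutants and none was called, with a median log2 difference of 1.75 and a summed level of 174 to 1042 in controls and 410 to 2719 in mutants. Whether such cells passed the sort, and their part in the members' values, was not tested.

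Sbsn, a secreted protein of differentiating epidermis, did not pass the test (447 ± 24.2 in controls, 534 ± 216 in mutants, SD, log2 difference 0.18, adjusted p = 0.733), nor did Tgm3, the transglutaminase of late epidermal and hair differentiation (29.2 ± 12.1 and 26.8 ± 12.9, SD, log2 difference -0.17, adjusted p = 0.849). The other 4 members were below the filter. Sprr1b reached at most 5.96 normalized counts, Sprr2b 17.1, Sprr2d 21.2 and Sprr3 18.8. Sprr2d and Sprr3 were listed at 0 in all 4 controls and were highest in mutant a, and exact two-sided permutation tests gave p = 0.167 and p = 0.444.

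The second comparison asks how these genes differ between BBN tumors of mutants and of mice labelled wild type. Sprr1a, Sprr2g and Ivl rose together in luminal tumors, each above all basal tumors, and the other members tested were not called. Calls were made for 3 of the 9 members tested, all higher, against 2.2% of 15357 genes. The 3 were also the only members tested that were higher without overlap, against 9.98% of all genes, and the median of all genes lay at -0.11 on the log2 scale.

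Sprr2g had 68.7, 212 and 1319 normalized counts in basal tumors a to c. Luminal tumors a to c had 16053, 42152 and 21160. The lowest luminal tumor was thus more than 10 times above the highest basal tumor. Means were 533 ± 684 and 26455 ± 13832 (SD, n = 3 each), and the log2 difference was 6.49 ± 0.89 (SE, adjusted p = 0.0192).

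Sprr1a had 7674, 13593 and 50328 in basal tumors and 275310, 1281439 and 259268 in luminal tumors. Basal tumor c was the highest of its group for Sprr1a as for Sprr2g. Means were 23865 ± 23108 and 605339 ± 585575 (SD, n = 3 each), with a log2 difference of 4.70 ± 0.80 (SE, adjusted p = 0.0303).

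Ivl had 225, 4873 and 1177 in basal tumors and 37912, 82106 and 29102 in luminal tumors. Here basal tumor b, not c, was the highest of its group. The log2 difference was 5.36 ± 1.01 (SE, adjusted p = 0.0364), with means of 2092 ± 2455 and 49707 ± 28402 (SD, n = 3 each).

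**Figure D2:**
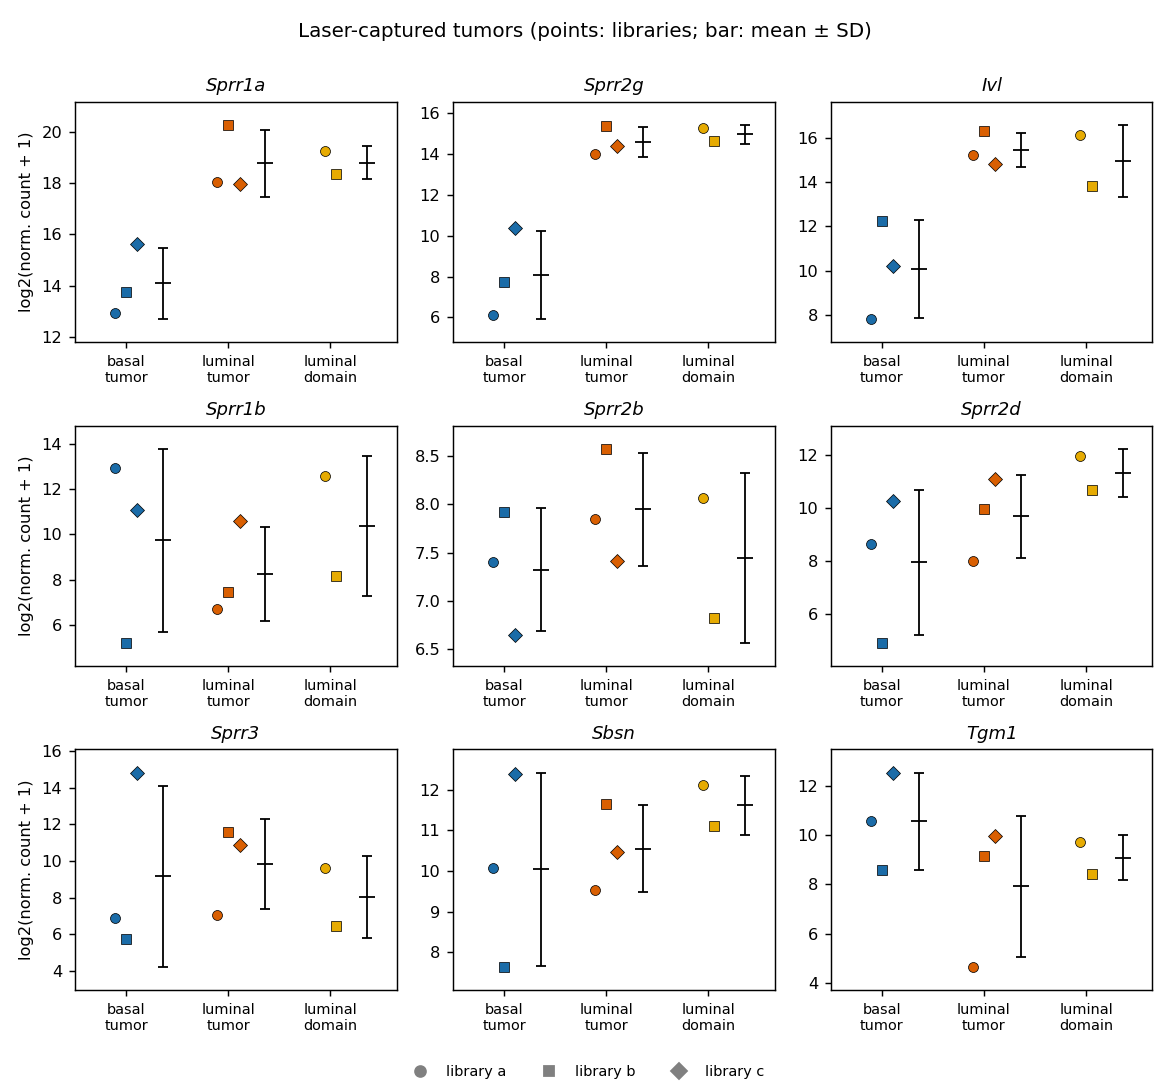
Normalized counts, as log2(count + 1), of the 9 members tested in 3 basal tumors, 3 luminal tumors and 2 luminal domains of the same table. Points are libraries, with a marker shape for each letter, and bars are mean ± SD. In the top row luminal libraries all lie above basal tumors, and in the other rows the groups of tumors overlap.

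The other 6 members tested were not called. Sprr1b, the nearest relative of Sprr1a, had 7895, 36.1 and 2140 normalized counts in basal tumors and 103, 175 and 1546 in luminal tumors. Its log2 difference was -1.49 with a 95% interval of -5.85 to 2.86 (adjusted p = 0.734). Levels thus ranged widely inside both groups, and the interval spans large differences in either direction.

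Sprr3, a small proline-rich gene typical of oral and oesophageal epithelium, was at 119, 52.2 and 29081 in basal tumors and at 129, 3044 and 1899 in luminal tumors. The group mean of basal tumors rested on basal tumor c. The log2 difference was 0.67 (interval -4.28 to 5.63, adjusted p = 0.904), and it ran from -1.04 without basal tumor b to 3.51 without basal tumor c.

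Sprr2d had 398, 29.5 and 1235 in basal tumors and 255, 985 and 2174 in luminal tumors (log2 difference 1.73, interval -1.15 to 4.61, adjusted p = 0.514, and 0.22 to 2.89 with 1 library left out). Sprr2b was low and even, with 99.4 to 241 in basal and 170 to 381 in luminal tumors (0.62, interval -1.26 to 2.51, adjusted p = 0.742). Both ranges overlapped, and both genes share sequence with other Sprr2 copies.

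Among the other members, Tgm1 had 1524, 383 and 5847 in basal tumors and 24.1, 560 and 1000 in luminal tumors. Luminal tumors lay lower on average but overlapped the basal range, with a log2 difference of -2.64 ± 1.40 (SE, interval -5.79 to 0.51, adjusted p = 0.358), which ran from -3.67 to -1.01 with 1 library left out. Sbsn had 1082, 199 and 5371 against 734, 3221 and 1423 (0.51, interval -1.84 to 2.86, adjusted p = 0.835). Tgm3 was below the filter, with at most 10.1 normalized counts in basal tumors, and was listed at 0 in all luminal tumors (exact two-sided permutation p = 0.4, where 0.1 is the smallest that 3 against 3 can give).

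All 3 calls ended without basal tumor a, luminal tumor a or luminal tumor b, Sprr1a also without basal tumor b and Ivl also without basal tumor c. The differences stayed between 5.52 and 7.64 for Sprr2g, 3.94 and 5.46 for Sprr1a, and 4.23 and 6.44 for Ivl, with adjusted p up to 0.0879, 0.108 and 0.131. All 3 were also lost without a trend in the variance (adjusted p 0.0523, 0.0775 and 0.105), and Sprr1a and Ivl with no filter (0.0547 and 0.0641). Ivl also lost its call in the fit with only the groups compared, so it was called in 8 of 11 other settings.

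Markers of other cell types moved with the groups. All 8 fibroblast markers and all 6 smooth muscle markers were lower on average in luminal tumors, and 4 and 3 of them were called. Their summed levels were 52850 to 87575 and 6010 to 51207 in basal tumors against 300 to 19166 and 150 to 1254 in luminal tumors. The largest log2 falls called were those of Pdgfrb (-7.91), Fn1 (-5.71) and Col1a2 (-5.38) among fibroblast markers and of Cnn1 (-8.76), Acta2 (-6.55) and Tagln (-5.89) among smooth muscle markers. Leukocyte markers summed to 28781 to 149606 and 918 to 19705, with 0 of 10 called, and the 5 endothelial markers, all lower on average and none called, to 1309 to 3257 and 374 to 1091. The part of these cells in the members' values was not tested.

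Of the 14 urothelial epithelium markers, 10 were higher on average in luminal tumors and 5 were called higher, with a median log2 difference of 2.30, and their summed level was 331172 to 831306 in basal and 984559 to 1331441 in luminal tumors. Among them the general epithelial genes Epcam and Cdh1 were at 17182 and 8460 on average in basal tumors and at 15168 and 15319 in luminal tumors, and neither was called. The list also mixes uroplakins, which are superficial markers as well, with basal keratins. Of the keratins, Krt14 was at 136976 to 423450 in basal and 2431 to 95586 in luminal tumors. Krt5 was at 60435 to 198996 and 4731 to 91588. The list as a whole is thus no plain measure of the amount of epithelium. The ratios of means were 49.6 for Sprr2g, 25.4 for Sprr1a and 23.8 for Ivl. Single libraries weighed heavily on them: basal tumor c for Sprr2g (1319), luminal tumor b for Sprr1a (1281439) and basal tumor b for Ivl (4873). The part of the epithelial share in these ratios was not tested. In such bulk material fewer cells that express a gene and less RNA of it per cell cannot be told apart.

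Luminal domains were compared with the same basal tumors in a table of their own. The same 3 members were called higher among 9 tested, against 2.53% of 14921 genes. Higher without overlap were 4 of the 9 (these 3 and Sprr2d), against 14% of all genes. The basal tumors are shared with the comparison above, and the luminal domains also enter the table of luminal tumors and that of the domains, so this is no independent repeat.

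Luminal domains a to c had 42215, 27054 and 23430 normalized counts of Sprr2g, 670162, 363149 and 328062 of Sprr1a, and 76192, 15744 and 60609 of Ivl. The basal tumors reached at most 1366, 52183 and 5033 in this table. All luminal domains therefore lay above all basal tumors for these genes, by the least in Ivl. The log2 differences were 6.74 ± 0.92 for Sprr2g (adjusted p = 0.0239), 4.58 ± 0.67 for Sprr1a (adjusted p = 0.0258) and 5.20 ± 1.05 for Ivl (SE, adjusted p = 0.0482).

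Sprr2d was at 4211, 1772 and 5136 in luminal domains and at 417, 30.3 and 1279 in basal tumors. The groups did not overlap, yet the gene was not called (log2 difference 3.72 ± 1.22, SE, adjusted p = 0.149). Tgm1 was again lower on average, at 366 to 906 against 394 to 6076 (-1.65, interval -3.81 to 0.50, adjusted p = 0.364). Sprr1b, Sprr2b, Sprr3 and Sbsn had differences of -0.24, 0.52, -0.30 and 1.05 with adjusted p of 0.638 or more.

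The calls of luminal domains also rested on few libraries. All 3 ended without basal tumor a or any 1 of luminal domains a, b and c, and Ivl also without basal tumor c, with adjusted p up to 0.121 for Sprr2g and Sprr1a and 0.173 for Ivl. Ivl was called in 3 of 9 other settings, and all 3 calls were lost without a trend in the variance (adjusted p 0.0713 for Sprr2g, 0.0764 for Sprr1a and 0.134 for Ivl). Over the omissions the log2 difference was 5.77 to 7.89 for Sprr2g, 4.00 to 5.34 for Sprr1a and 4.07 to 6.27 for Ivl, and it was 2.20 to 4.88 for Sprr2d. Fibroblast markers summed to 55215 to 93947 in basal tumors and 6056 to 32533 in luminal domains, with 1 of 8 called lower (Fn1, -4.24), and 3 of 6 smooth muscle markers were called lower (Tagln -4.26, Acta2 -3.54, and Cnn1, listed at 0 in all luminal domains). Leukocyte markers summed to 29611 to 157368 and 8766 to 22813, with 0 of 10 called. The part of these markers' cells in the result was not tested.

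**Figure D3:**
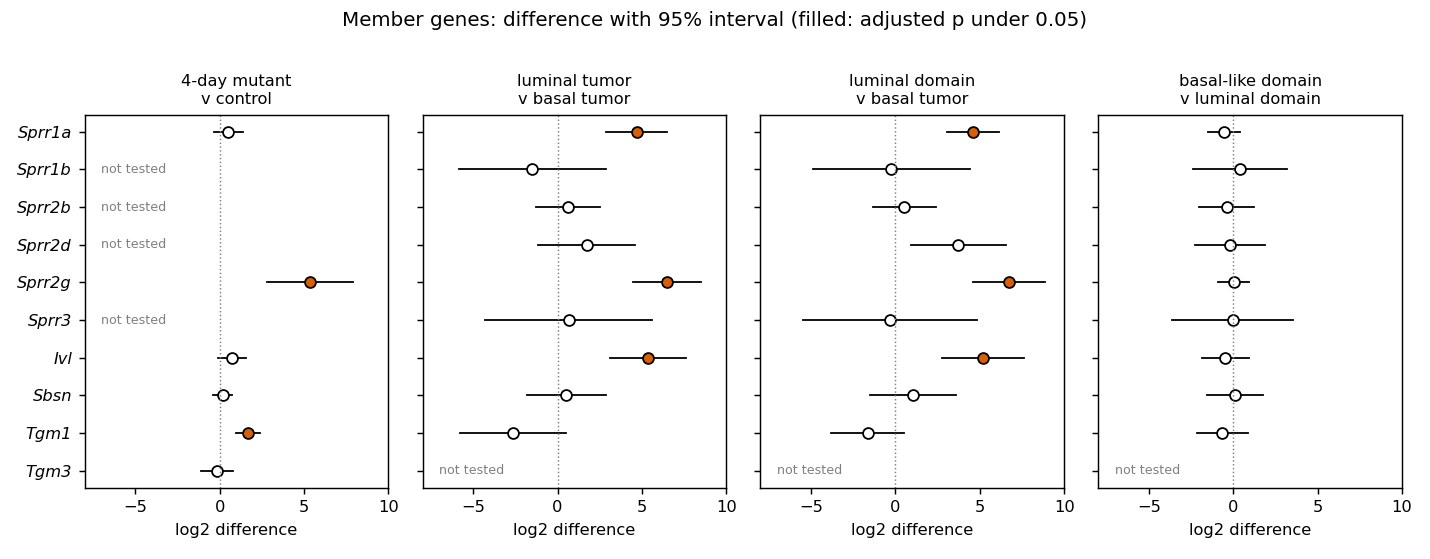
Log2 differences of the 10 members in the 4 comparisons, with 95% intervals and filled points where the adjusted p was under 0.05. Sprr2g is filled in 3 comparisons, Sprr1a and Ivl in both comparisons with basal tumors, and Tgm1 at 4 days alone, while no member is filled between the domains.

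The last comparison asks how basal-like and luminal domains of the mutants' tumors differ. None of the 9 members tested was called, and over all 14874 genes none was either (0% called by limma, with 757 genes at an unadjusted p under 0.05 and 20 called without a trend in the variance). No member tested was higher without overlap in basal-like domains, where 5.62% of all genes were. In basal-like domains Sprr2g was at 25878, 20186 and 52047 normalized counts against 41740, 27094 and 23442 in luminal domains. The log2 difference was 0.01 with a 95% interval of -0.89 to 0.91, and the groups overlapped.

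Sprr1a had 244057, 288482 and 354354 in basal-like domains and 666673, 365903 and 330248 in luminal domains. The log2 difference was -0.56 (interval -1.52 to 0.39, adjusted p = 0.941). Ivl had 43539, 17390 and 37954 against 76935, 16102 and 61929 (-0.47, interval -1.88 to 0.94, adjusted p = 0.972). Both genes were lower on average in basal-like domains, with overlapping groups and intervals that include 0.

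Tgm1 was at 605, 320 and 173 against 913, 379 and 373 (-0.65, interval -2.15 to 0.86, adjusted p = 0.961). Sprr1b, Sprr2b, Sprr2d, Sprr3 and Sbsn overlapped as well, with log2 differences from -0.40 to 0.40. The sources used here do not say which luminal and basal-like domains came from the same lesion, so the domains were compared unpaired. Basal-like domain c was the highest of the 6 libraries for Sprr2d (12563), Sprr2g and Sprr3 (5308), while basal-like domain b was the highest for Sbsn (8188). Tgm3 was below the filter, at 0.918, 1.82 and 1.88 in basal-like domains and 7.11, 12.7 and 5.48 in luminal domains, without overlap (exact two-sided permutation p = 0.1, the smallest that 3 against 3 can give). These are levels of a few counts. Fibroblast markers summed to 6295 to 33572 in luminal and 17161 to 108277 in basal-like domains, with 0 of 8 called, and smooth muscle markers to 1440 to 1921 and 1929 to 7195, with 0 of 4 tested called. All 9 superficial cell markers were lower on average in basal-like domains, with a median log2 difference of -1.88 and 0 called. They summed to 138343 to 855621 in luminal and 37976 to 327601 in basal-like domains. The part of any of these markers' cells in the members' values was not tested.

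**Figure D4:**
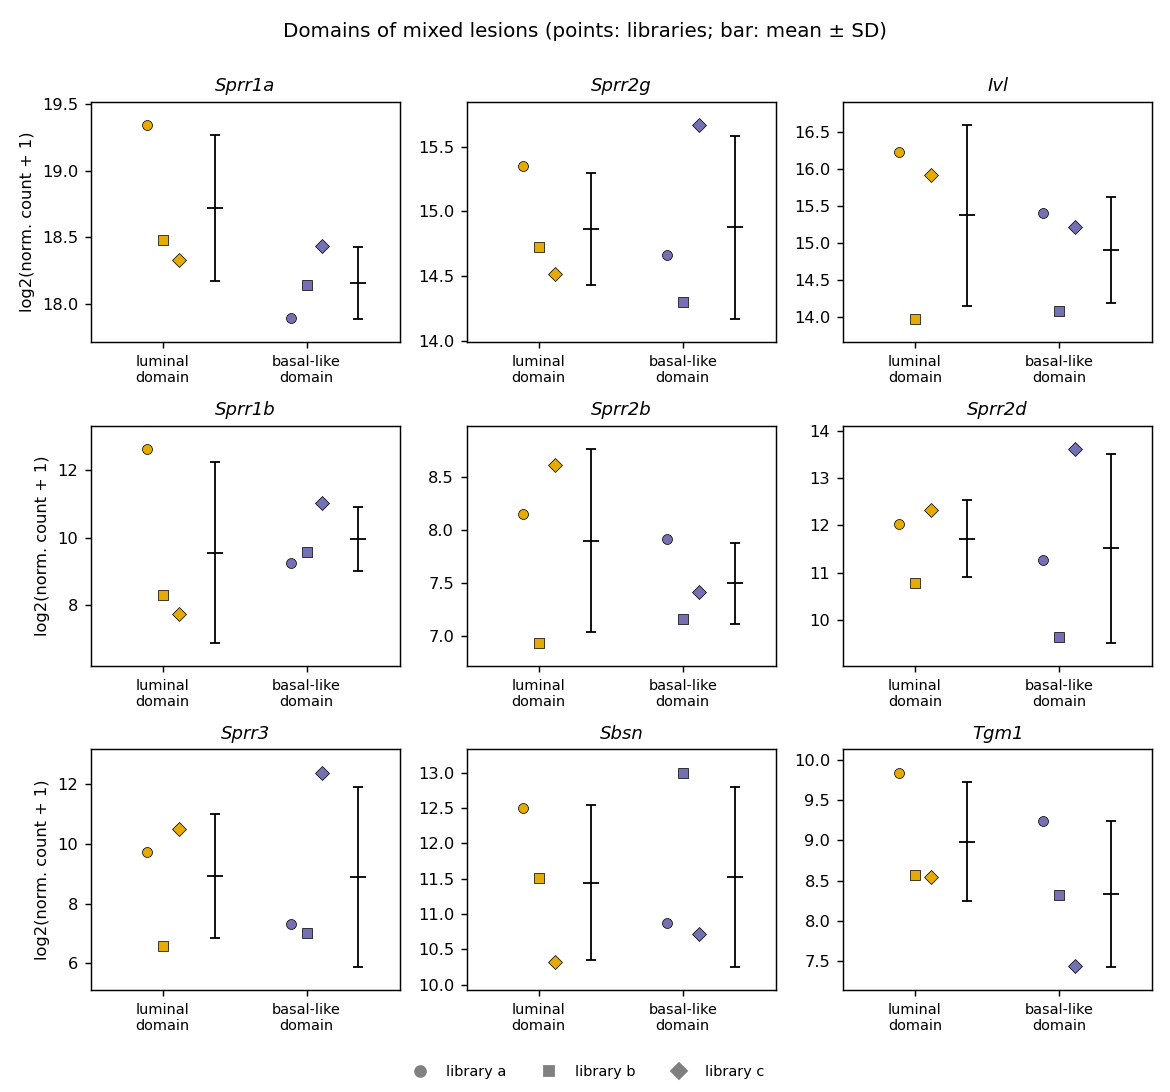
Normalized counts, as log2(count + 1), of 9 members in 3 luminal and 3 basal-like domains of mixed lesions. Points are libraries, with a marker shape for each letter, and bars are mean ± SD. The groups overlap in every panel.

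Among the other 10 Sprr genes, Sprr2f, which lies next to Sprr2g, had the pattern most like it. Sprr2f was at 62.7 to 119 normalized counts in 4-day controls and 265 to 13086 in 4-day mutants, without overlap but not called (log2 difference 3.86 ± 1.02, SE, adjusted p = 0.0744). It was at 231 to 1925 in basal tumors and 43140 to 60029 in luminal tumors (6.63 ± 0.72, SE, adjusted p = 0.0126), and luminal domains reached 161025 to 334385 (8.78 ± 0.76, SE, adjusted p = 0.00932). It was the only gene of that list called in any comparison.

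When all Sprr2 rows were summed, which does not depend on how reads were split within the family, no difference was called. Most of the sum was Sprr2a2 and Sprr2a3. In basal tumor a they had 483172 and 68185 of 566641, and Sprr2g had 68.7. In luminal tumor a they had 942880 and 383838 of 1398929, and Sprr2g had 16053. The sum therefore cannot show whether Sprr2g or Sprr2f changed. The sum was 65507 to 196417 in 4-day controls and 78389 to 292693 in mutants (log2 difference 0.53, adjusted p = 0.554). It was 478760 to 1564438 in basal tumors and 1398929 to 3079634 in luminal tumors (1.48, adjusted p = 0.319), and these ranges overlapped. In the separate table of luminal domains and basal tumors it was 496668 to 1609697 in basal tumors and 2498688 to 4170987 in luminal domains, without overlap (2.04, interval 0.23 to 3.86, adjusted p = 0.199).

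Against basal-like domains, whose sum was 1425252 to 2097405, luminal domains were higher without overlap (-0.86 for basal-like against luminal domains, adjusted p = 0.948). All Sprr rows together took 1.25 to 3.78% of normalized counts in basal tumors and 3.14 to 6.55% in luminal tumors.

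**Figure D5:**
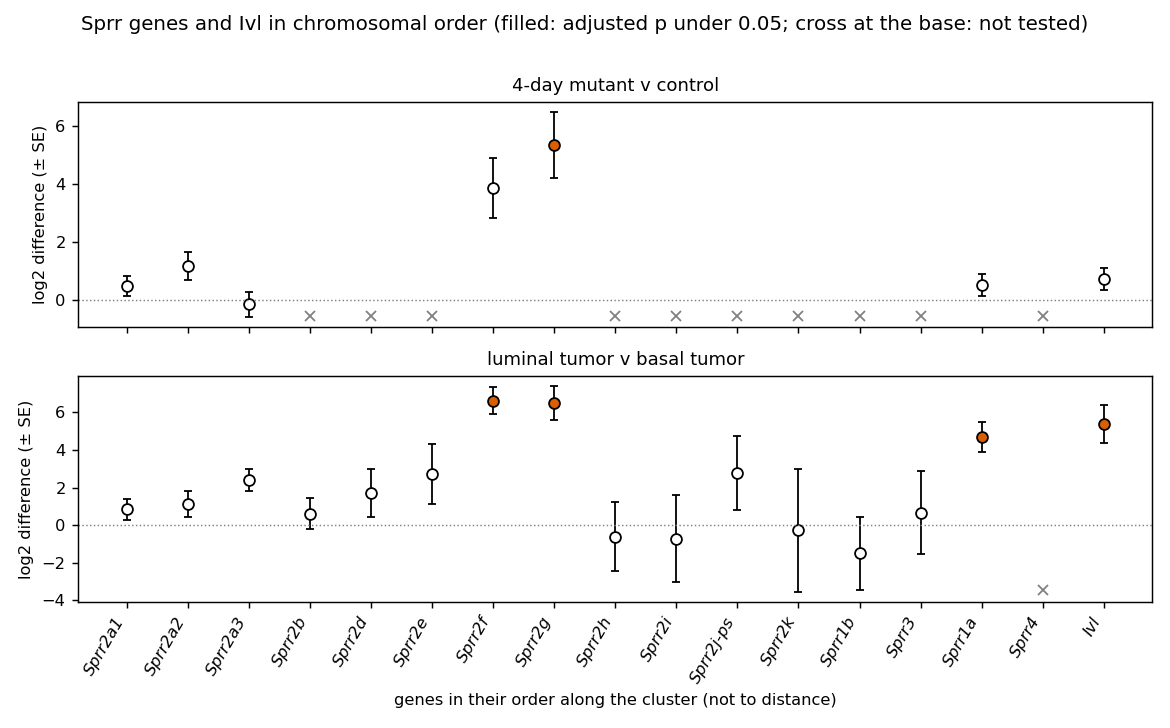
Log2 differences ± SE of 17 genes, Sprr genes and Ivl, in their order along chromosome 3, at 4 days (top) and in luminal against basal tumors (bottom). Filled points had an adjusted p under 0.05, and crosses mark genes below the filter. Sprr2f and Sprr2g stand out in both panels, and Sprr1a and Ivl in the lower one.

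For other envelope genes, calls are set beside the share called over all genes. That share was 2.85% at 4 days and 2.2% in luminal against basal tumors. It was 2.53% in luminal domains against basal tumors and 0% between domains. At such shares a list this short may hold no call, so an absence of calls says little. Of 37 late envelope and granular layer genes, among them loricrin (Lor) and filaggrin (Flg), 8 passed the filter at 4 days, 22 in luminal against basal tumors, 21 in luminal domains against basal tumors and 20 between domains, and none was called. Lor was at 3.70 to 1409 in basal tumors and 23.0 to 274 in luminal tumors. The median log2 difference of the 22 genes was -0.01.

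Of 16 early scaffold genes, 12 were tested at 4 days and all 12 were higher on average in mutants, with a median of 0.82 where the median of all genes was 0.00, but none was called. In luminal against basal tumors, 1 of 16 was called higher, Ly6d (log2 difference 2.49 ± 0.53, SE, adjusted p = 0.0491), a surface protein of keratinocytes, and 1 lower, the protease inhibitor Serpinb2 (-5.66 ± 1.03, SE, adjusted p = 0.036). No other transglutaminase and no protease or inhibitor of desquamation was called in any comparison. In luminal against basal tumors the median log2 difference was -3.07 over the 10 desquamation genes tested, 2 of them higher on average, and -2.42 over the 2 other transglutaminases tested, where the median of all genes was -0.11. Of the envelope lipid genes, Elovl1, a fatty acid elongase, was called at 4 days alone (0.68 ± 0.15, SE, adjusted p = 0.0448).

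Of 14 regulators of terminal differentiation, Elf3, an epithelial Ets factor, was called higher in luminal tumors (2.15 ± 0.36, SE, adjusted p = 0.0292) and luminal domains (2.59 ± 0.39, SE, adjusted p = 0.0258). Markers of superficial urothelial cells were called beside the members. Fabp4 (4.64) and Krt20 (1.83) rose at 4 days. Epcam, of the urothelial epithelium list and not a superficial marker, fell at 4 days by 0.72 on the log2 scale. In luminal tumors Upk3a (9.99), Snx31 (9.80) and Upk1a (9.63) had the largest log2 rises of 5 called among the 9 superficial markers, and in luminal domains Upk3b (9.53), Snx31 (9.32) and Upk2 (7.58) were the 3 called. Of the urothelial epithelium markers, Upk3a, Upk1a and Upk2 (8.70) led 5 calls in luminal tumors, and Upk2 and Krt19 (2.65) were called in luminal domains.

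Across the libraries of a table, some members varied together. Over the 8 libraries of the tumor table, Pearson's r of log2 values was 0.98 between Sprr1a and Sprr2g, 0.90 between Sprr1a and Ivl, and 0.90 between Sprr2g and Ivl, all of which carry the gap between basal and luminal libraries. It was 0.89 between Sprr2d and Sbsn and -0.50 between Ivl and Tgm1. Over the 9 libraries at 4 days it was 0.86 between Sprr2g and Tgm1 and 0.85 between Sprr2g and Ivl.

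Among 10767 other genes, the ones most like each member were ranked by the smaller of its r values in the 4-day and tumor tables. For Sprr2g they were Sprr2f (0.97), Las1l (0.96) and Taldo1 (0.95), for Sprr1a Degs2 (0.93), Krt23 (0.92) and Fdx1 (0.92), and for Ivl the uroplakin Upk1b (0.96), Gcnt3 (0.95) and Arpc5l (0.95). For Tgm1 they were Ndrg4 (0.92), Mdk (0.89) and Tuba1a (0.88), and for Sbsn Tlcd1 (0.84), Wsb2 (0.79) and Uaca (0.77). With 9 and 8 libraries and so many genes searched, high values of r arise easily, and they are given as a description.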

How the data were processed

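RNA-seq libraries (SMART-Seq v4, Nextera XT) were processed by the authors, per the submitters' processing notes in the labels, with bcl2fastq 2.20, kallisto 0.44.0 and DESeq2 1.18, with GRCm38 named for mouse. The tables deposited by the authors hold a normalized signal, that is kallisto estimates per gene scaled with the authors' DESeq2 run, on a scale set within each table. The reads behind a value could not be recovered, so the depth in reads is unknown, and values are compared only within a table. From 5 tables, 21 libraries were read. The table of untreated and 1-month BBN urothelium is not analysed here, because its 8 columns could not be tied to groups. Both groups hold 4 samples, so group size does not tell them apart, and no label says which columns are untreated. Tables of the authors' own fold changes and p-values were not used.

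Genes that reached 10 normalized counts in 4 or more libraries (4-day) or in 3 or more (tumor tables) were tested on log2(normalized count + 1) with limma 3.58.1 (lmFit, eBayes with a trend) in R 4.3.3, with Benjamini-Hochberg adjustment over all genes tested. This takes the place of the count test that the authors used, which needs raw counts. The tumor table was fitted with its 3 groups together, so the luminal domains share in the estimate of spread. Single values below the filter had an exact two-sided permutation test. The fit was also run on simulated data of independent normal log2 values. That setting does not speak to the dependence of the calls on single libraries. Figures were drawn with matplotlib 3.10.9. Gene positions are from GENCODE M21 and promoters from RefSeq.

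Members and gene lists were chosen with earlier results of these data known. Named genes were all members, per comparison the called genes of each other list with the 3 largest rises and falls, and per member the 3 genes most alike (mean of at least 100 normalized counts in both tables, predicted genes left out). Alternatives were pseudocounts of 0.5 and 5, a filter of 50 or none, eBayes without a trend or robust, quantile and upper-quartile scaling, array weights, other groupings of the tumor table, the 4-day table of 6 libraries, each library left out and, chosen after seeing the data, the 4-day libraries with a low Y-linked level.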

Additional observations from a re-analysis of the deposited data

Results flagged for a closer look

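Of 20 groups of members' values tested for a library far from the rest, 1 was set apart. Sprr2g in 4-day control c was at 6.256 normalized counts, where the other controls lay between 9.126 and 9.423. Chance sets apart about 1 in 20 groups, and all 4 controls were low. Groups of 3 libraries were not examined in this way.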

How the results depend on the processing

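No paired analysis was possible because the columns carry no replicate numbers: sample titles number the domains, but only 1 column of the domains could be tied to such a number. Column numbers of luminal and basal-like domains are adjacent, but no label ties them to shared lesions, so whether a pairing would change the comparison of domains is unknown. At 4 days the members called numbered 2 as reported, 1 without a variance trend, 0 in the table of 6 libraries, 0 in the libraries with a low Y-linked level (chosen after seeing the data, and with a lone control too small to speak for or against a call), and 0 to 2 with a library left out. In luminal against basal tumors they numbered 3 as reported, 1 with no filter, 0 without a trend and 0 to 3 with a library left out. In luminal domains against basal tumors they numbered 3, then 2 in 5 settings where Ivl lost its call (a pseudocount of 0.5, no filter, robust eBayes, and quantile or upper-quartile scaling), 0 without a trend and 0 to 3 with a library left out. In luminal against basal tumors they numbered 2 with only the groups compared, where Ivl lost its call. Between domains they numbered 0 in all settings run. The causes were not tested. The Sprr2 sum reversed to -0.3521 at 4 days in the low Y-linked libraries, and quantile normalization gave 0 in the 3 tumor comparisons, where the summed row ranks first in every library.

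Of 542 member values under alternatives, 452 kept direction and side of the threshold, 55 lost a call and 35 reversed, none of them called as reported. Reversed values were 0.0117 for Tgm3 at 4 days and -0.0034 for Sprr2g between domains with array weights, -0.0462 for Sprr3 in luminal against basal tumors with all luminal libraries as 1 group, and, between domains, 0.0296 for Sprr1a with quantile normalization and 0.0719 for Sprr3 with upper-quartile scaling. With a library left out, Tgm3 ran from -0.40 to 0.0807 and Sbsn from -0.027 to 0.30 at 4 days. In luminal against basal tumors Sprr1b ran from -3.76 to 0.11, Sprr3 from -1.04 to 3.51 and Sbsn from -0.69 to 1.69. In luminal domains against basal tumors Sprr1b ran from -2.51 to 1.37, Sprr3 from -2.02 to 2.53 and Sbsn from -0.15 to 2.23. Between domains Sprr1b ran from -0.51 to 1.94, Sprr2d from -1.25 to 0.73, Sprr2g from -0.38 to 0.30, Sprr3 from -1.76 to 0.91 and Sbsn from -0.65 to 0.61.

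Genes called at 4 days, 467 as reported, became 269 without a trend, 1054 with array weights, 147 in the table of 6 libraries, 2 in the low Y-linked libraries and 129 to 596 with a library left out. The 338 of luminal against basal tumors became 52 with no filter, 142 without a trend, 513 with all luminal libraries as 1 group, 142 with only the groups compared and 3 to 813 with a library left out. The 377 of luminal domains became 144 with no filter, 107 without a trend and 0 to 467 with a library left out. The depth in reads is unknown, so no floor can be given for values listed at 0.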
